A study of Mus musculus with 6 samples.

Results

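Integrins are the cell surface receptors that bind basement membrane, other matrix and neighbouring cells, and laminins are the main ligands they meet in a basement membrane. From the 54087 gene rows of the deposited counts, 37 rows of these 2 families are described. They were chosen by gene name, with earlier results of these data known. There are 18 integrin alpha subunits, 9 integrin beta subunits and 10 laminin chains (5 alpha, 3 beta and 2 gamma). Left out were Itgb1bp1, Itgb1bp2, Itgb3bp and Itgbl1, whose products are not subunits.

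An integrin is a heterodimer of an alpha and a beta subunit, and the pair decides what is bound. Itga3, Itga6 and Itga7 with Itgb1, and Itga6 with Itgb4, are laminin receptors. Itga5 with Itgb1 binds fibronectin, Itgav with several beta subunits binds fibronectin, vitronectin and latent TGF-beta, and the Itgb2 and Itgb7 pairs are receptors of white blood cells. Laminins are trimers of an alpha, a beta and a gamma chain. In the testis, spermatogonial stem cells lie on the basement membrane of the seminiferous tubule, antibodies to the products of Itga6 and Itgb1 have long been used to enrich them, and low surface levels of the Itgav product have served for the same purpose.

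RNA came from male C57BL/6 germ cells at 10 days post partum, gated as bright or medium for Id4-GFP, a reporter that every sample carried. Of the 6 libraries, 3 were Dnmt3A WT/WT and 3 Dnmt3A KO/KO, and the comparison asks what changes when this de novo DNA methyltransferase is mutated. How the KO allele was made, in which cells it was deleted and whether a library came from 1 animal or a pool are not stated in the labels, so p-values reflect only how these libraries varied, which may be technical. Id4, the gene behind the gate, itself rose from 37.8 ± 0.780 to 141 ± 47.3 CPM (SD, n = 3 each, edgeR adjusted p = 0.000814). Whether the gate took the same cells in both genotypes was not tested.

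Levels are given in CPM, counts scaled to the library's TMM-adjusted gene total, and changes as log2 fold change of KO/KO over WT/WT with its standard error (SE). A gene passed when its p-value from edgeR's quasi-likelihood test, adjusted over the 21314 genes tested, was under 0.05. Gene counts ran from 42681201 to 61749155 per library. Dnmt3a fell from 199 ± 14.3 to 98.0 ± 7.17 CPM (SD, n = 3 each, log2 fold change -1.02, SE 0.09, edgeR adjusted p = 0.000222). KO/KO replicate 1 stood apart: on the first principal component (57.1% of the variance) it lay at 18.6, the other KO/KO libraries at 42.1 and 42.6 and the WT/WT libraries between -37.2 and -32.9. The 8 germ cell markers summed to between 2050 and 2127 CPM across WT/WT and between 1830 and 2075 CPM across KO/KO, and 5 of the 8 passed: Id4 and Gfra1 rose, and Sall4, Zbtb16 and Uchl1 fell (edgeR). RNA of Sertoli cells, the nurse cells of the tubule, was present in all libraries: 10 markers summed to between 387 and 543 CPM across WT/WT and between 393 and 570 CPM across KO/KO, and 0 of the 10 passed (edgeR). In bulk RNA, fewer cells of a type and less RNA per cell cannot be told apart.

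Of the 37 rows, 31 had enough counts to be tested, and 8 rose and 3 fell in KO/KO. Across all genes tested, 8.33% were called higher and 6.42% lower, against 25.8% and 9.68% of these 31. The median log2 fold change of the 31 was -0.05, against 0.00 for all genes tested. Integrins that rose were Itga3, Itga5, Itga6, Itgae, Itgal, Itgav and Itgb2, and those that fell were Itga7, Itga9 and Itgb4. The laminin chain that rose was Lama3. Over the 31, 5 passed with a rise of at least 2-fold and 1 with such a fall, against 3.99% and 2.41% of all genes tested. Among called genes only, these were 5 of the 8 rises and 1 of the 3 falls. Over all genes tested, 850 of 1776 rises and 513 of 1368 falls reached 2-fold. Of the 31, every KO/KO library lay above every WT/WT library for 12 and below for 5, against 18.2% and 17.5% of all genes tested. All 11 called members were among these, which passing the test makes likely. Without KO/KO replicate 1, 7 integrins rose and 2 fell, and 1 laminin rose. The counts shrank most on leaving out 1 WT/WT library: 5, 3 and 3 integrins rose and 0, 1 and 1 fell without WT/WT replicates 1, 2 and 3, and 0, 1 and 0 laminins rose, while over all genes tested the number higher went from 1776 to 1083, 814 and 892. Itga5, Itgav and Itgb2 passed under all 12 alternatives tried. All 6 untested members, Itgad, Itgam, Itgax, Itgb2l, Itgb6 and Lamb3, lay under 0.5 CPM in every library.

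**Figure D1:**
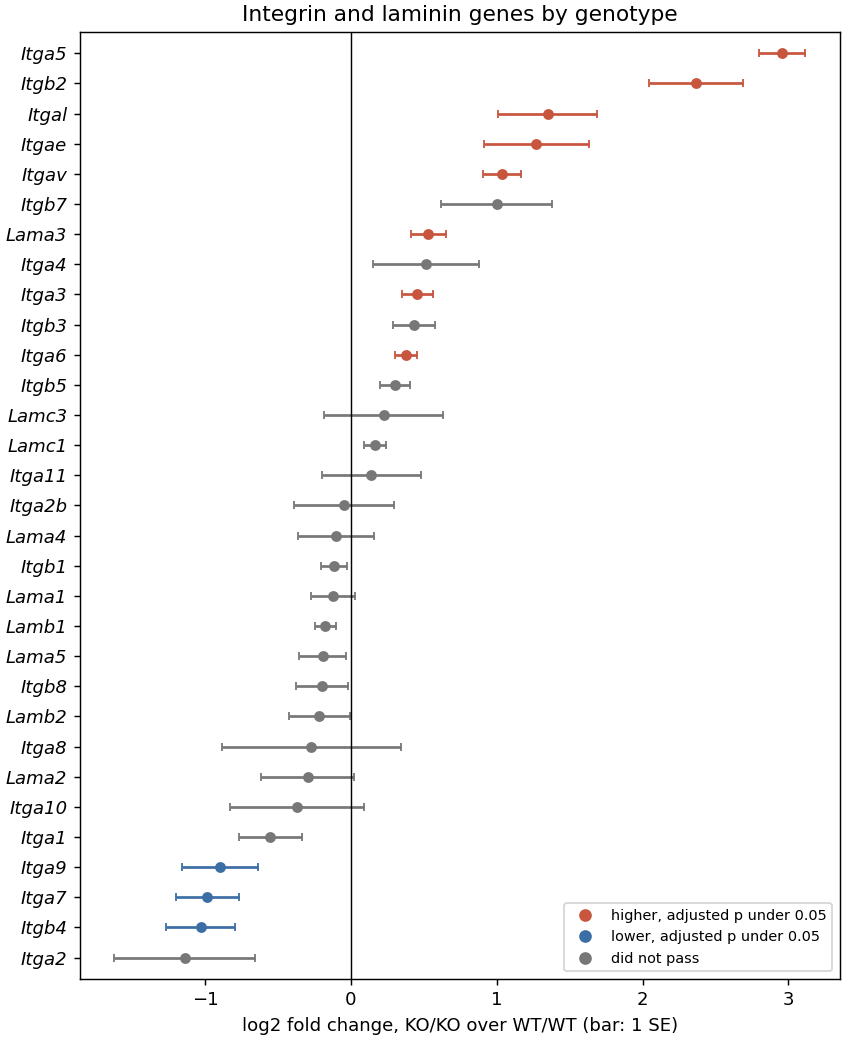
Log2 fold change (x axis, KO/KO over WT/WT) of each of the 31 tested integrin and laminin genes (y axis), with bars of 1 SE. Itga5 (2.96) and Itgb2 (2.37) lie farthest to the right, and most laminin genes lie near 0.

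The fibronectin receptor subunit Itga5 had the largest rise of the family. Its gene (chromosome 15, 103344286 to 103366763, GRCm38, minus strand) had 2.74, 2.89 and 3.21 CPM across WT/WT and 19.5, 24.3 and 24.8 CPM across the KO/KO libraries. Every KO/KO library lay far above every WT/WT library, and KO/KO replicate 1 was only a little lower than the other KO/KO libraries. The mean level was 7.76 times that of WT/WT (log2 fold change 2.96, SE 0.16, n = 3 each, edgeR adjusted p = 2.26e-05).

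Itgav, the alpha subunit shared by the vitronectin receptor family, rose 2.05-fold in mean level. It (chromosome 2, 83724397 to 83806916, plus strand) stood at 23.4, 20.5 and 19.9 CPM across WT/WT and at 37.7, 50.0 and 43.0 CPM across KO/KO. The genotypes were well separated (log2 fold change 1.04, SE 0.13, n = 3 each, edgeR adjusted p = 0.00115). Its beta partners did not pass. Itgb3 had 14.5, 15.2 and 12.3 CPM across WT/WT and 17.1, 21.9 and 17.5 CPM across KO/KO, and Itgb5 had 43.0, 47.3 and 46.9 against 51.9, 53.5 and 63.7 CPM. For both, every KO/KO library was above every WT/WT library, as for 18.2% of all genes tested (log2 fold changes 0.43 and 0.30, edgeR adjusted p = 0.0772 and 0.0838). Itgb8, whose product with that of Itgav activates latent TGF-beta, overlapped between genotypes at 8.07 ± 1.55 and 7.05 ± 0.262 CPM (SD, n = 3 each).

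Itgb1, the beta subunit that most alpha subunits of this study need, did not pass. It had 144, 152 and 165 CPM across WT/WT and 156, 131 and 139 CPM across the KO/KO libraries (log2 fold change -0.12, SE 0.09, edgeR adjusted p = 0.436). The ranges overlapped.

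The stretches upstream of the transcription start are shown for Itga5 and Itgav, the 2 members that rose at least 2-fold and have an entry in the RefSeq promoter table (GRCm38.p6), and for their shared partner Itgb1. Capitals mark CG, the dinucleotide that DNA methyltransferases act on, searched as the letters CG, which read the same on both strands. Each line gives the 250 bases before the RefSeq start, 5′ to 3′ on the gene's strand: chr15:103366792-103367041 (minus strand) for Itga5, chr2:83724147-83724396 (plus strand) for Itgav and chr8:128685404-128685653 (plus strand) for Itgb1.
Itga5: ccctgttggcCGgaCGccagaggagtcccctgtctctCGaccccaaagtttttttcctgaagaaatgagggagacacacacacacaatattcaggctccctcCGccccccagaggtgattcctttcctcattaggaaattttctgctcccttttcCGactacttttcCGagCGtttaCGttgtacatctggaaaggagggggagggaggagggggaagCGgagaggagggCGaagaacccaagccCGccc
Itgav: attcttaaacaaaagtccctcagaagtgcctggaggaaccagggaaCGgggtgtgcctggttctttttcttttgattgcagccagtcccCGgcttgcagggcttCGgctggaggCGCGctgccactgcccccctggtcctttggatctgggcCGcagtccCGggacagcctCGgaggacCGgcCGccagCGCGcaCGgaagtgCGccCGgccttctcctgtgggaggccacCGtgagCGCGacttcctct
Itgb1: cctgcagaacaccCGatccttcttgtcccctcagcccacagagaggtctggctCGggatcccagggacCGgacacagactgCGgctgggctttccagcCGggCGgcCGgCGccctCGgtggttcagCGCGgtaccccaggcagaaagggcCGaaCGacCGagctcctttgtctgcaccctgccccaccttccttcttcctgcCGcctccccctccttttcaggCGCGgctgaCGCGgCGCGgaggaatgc
The stretch of Itga5 holds 11 CG, that of Itgav 18 and that of Itgb1 21. Over all 32851 promoter entries, the median was 6 CG in the same 250 bases, and 92.1% held at least 1. The table has entries for 24 of the 37 members, 27 in all, with between 0 and 22 CG and a median of 10. DNA methylation was not measured in these libraries, and the counts do not show which start was used.

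**Figure D2:**
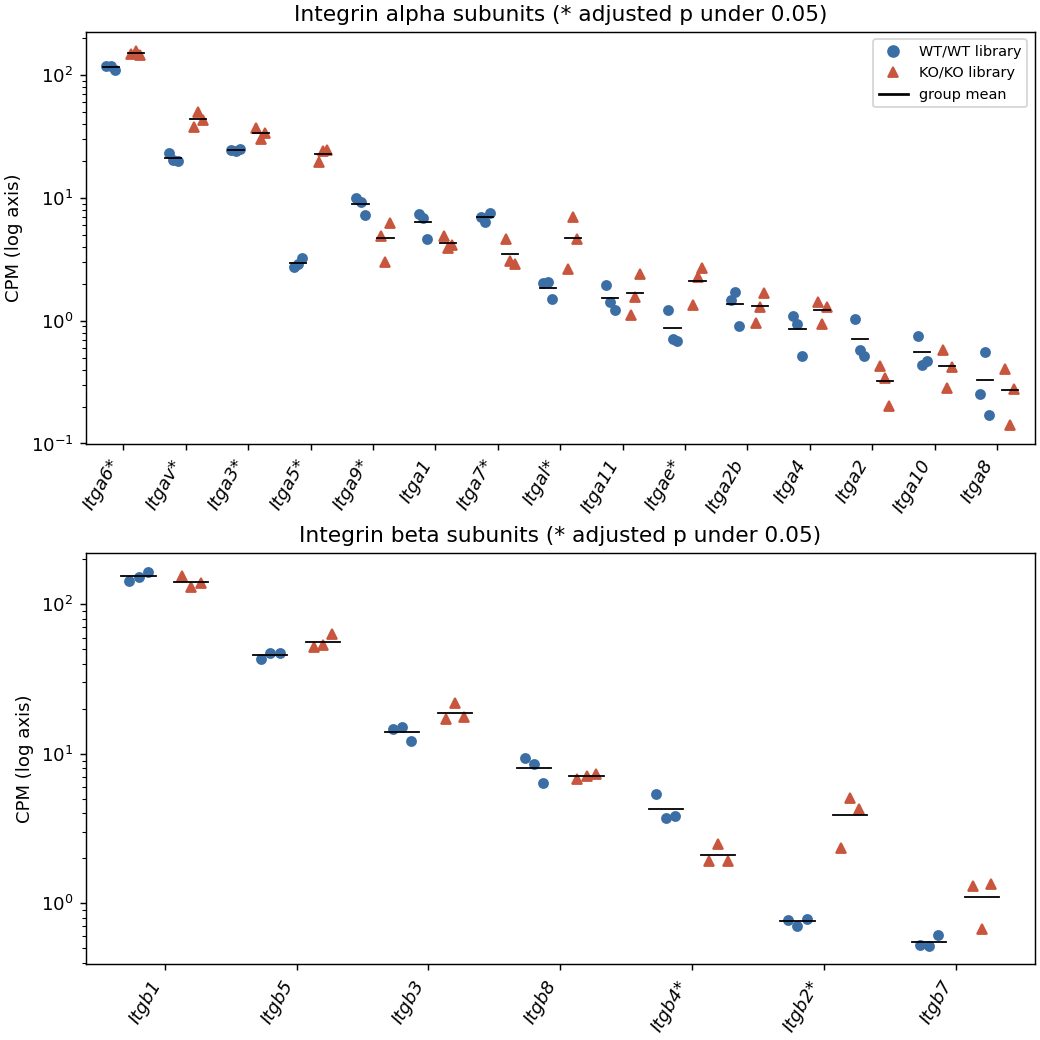
CPM (y axis, log scale) of the tested integrin alpha subunits (upper plot) and beta subunits (lower plot) in each library, with the group mean as a line. An asterisk marks genes that passed. Itga5 moves from near 3 CPM in WT/WT to between 19.5 and 24.8 CPM across KO/KO, while Itgb1 overlaps between the genotypes.

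Among the laminin-binding alpha subunits, the 2 abundant ones rose slightly and the scarce one fell. Itga6, the stem cell enrichment marker, had 119, 118 and 110 CPM across WT/WT and 148, 157 and 145 CPM across the KO/KO libraries (log2 fold change 0.38, SE 0.08, edgeR adjusted p = 0.0101). Itga3 had 24.6, 24.2 and 24.9 CPM against 36.8, 30.4 and 33.9 CPM (log2 fold change 0.46, SE 0.11, edgeR adjusted p = 0.0200). Neither gene's libraries overlapped between genotypes, and the mean levels were 1.30 and 1.37 times those of WT/WT. Itga7, the laminin receptor subunit best known from muscle, fell from 6.94, 6.33 and 7.57 CPM to 4.62, 3.04 and 2.90 CPM (log2 fold change -0.98, SE 0.22, edgeR adjusted p = 0.0160). Itgb4, the partner of Itga6 in hemidesmosomes, fell from 5.36, 3.70 and 3.85 CPM to 1.92, 2.47 and 1.92 CPM (log2 fold change -1.03, SE 0.23, edgeR adjusted p = 0.0174). Other genes, led by B230344G16Rik on the opposite strand, cover 7.66% of the exon bases of Itgb4. Their reads could add to its count, since the labels do not state the strand setting of the counting. The same holds for Itgav, where other genes, led by Gm13684, cover 5.90% of the exon bases. With 2 WT/WT libraries, several of these calls were lost. Without WT/WT replicates 1, 2 and 3 the edgeR adjusted p was 0.0779, 0.105 and 0.0746 for Itga3 and 0.0556, 0.0511 and 0.0684 for Itga7. It was 0.0571 and 0.0594 for Itga6 without WT/WT replicates 2 and 3, and 0.0842 for Itgb4 without WT/WT replicate 1.

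Itga9, which binds tenascin and other matrix and cell surface ligands, also fell. It had 9.95, 9.32 and 7.28 CPM across WT/WT and 4.94, 3.00 and 6.28 CPM across the KO/KO libraries (log2 fold change -0.90, SE 0.26, edgeR adjusted p = 0.0455). The call lay near the threshold and was lost without any 1 library other than KO/KO replicate 3: without WT/WT replicates 1, 2 and 3 the edgeR adjusted p was 0.143, 0.147 and 0.0703, and without KO/KO replicates 1 and 2 it was 0.0747 and 0.0580. The sum of 9 markers of interstitial stroma and Leydig cells was lower along with Itga7, Itga9 and Itgb4, at 95.7 to 120 CPM across WT/WT and 44.6 to 67.2 CPM across KO/KO. Col1a1 was the largest part of that sum and fell from 66.3 ± 10.3 to 24.3 ± 6.05 CPM (SD, n = 3 each). Of the 8 tested, 2 fell, Col1a1 and Pdgfra, and the others overlapped between genotypes. Their log2 fold changes were -0.13 for Col1a2, -0.18 for Dcn, -0.21 for Col3a1, -0.38 for Star, -1.21 for Hsd3b1 and -1.42 for Cyp11a1. The Leydig cell gene Insl3 was not tested and lay under 0.2 CPM in every library. The part of stromal RNA in these falls was not tested. The collagen-binding subunit Itga1 had 6.32 ± 1.46 and 4.31 ± 0.498 CPM (SD, n = 3 each) and did not pass (edgeR adjusted p = 0.118). Itga2, Itga10 and Itga11 bind collagens as well and Itga8 binds nephronectin, and none of these 4 passed. The count of Itga10 is uncertain, since other genes, led by Gm42957 on the same strand, cover 33.5% of its exon bases. Itga2 lay lower in every KO/KO library, at 0.424, 0.345 and 0.202 CPM against 1.03, 0.582 and 0.515 CPM in WT/WT (edgeR adjusted p = 0.146).

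Subunits were compared with each other only per kilobase of exon (CPM per kb), using the merged exons of GENCODE M21. By this measure the most abundant alpha subunits in WT/WT were Itga6 at 12.8 ± 0.531, Itga3 at 4.30 ± 0.0563, Itgav at 1.98 ± 0.174, Itga9 at 1.15 ± 0.182, Itga7 at 0.859 ± 0.0766 and Itga5 at 0.597 ± 0.0489 CPM per kb (SD, n = 3). None of these neighbours overlapped between libraries, although Itga9 and Itga7 nearly met, at 0.947 and 0.936 CPM per kb. In KO/KO the order was Itga6 at 16.6 ± 0.730, Itga3 at 5.90 ± 0.562, Itga5 at 4.63 ± 0.584 and Itgav at 4.06 ± 0.577 CPM per kb. Itga5 moved from the sixth highest level to the third, and its libraries overlapped with those of Itgav in KO/KO. Of the summed level of all 18 alpha subunits, Itga5 made up 2.56 ± 0.335% in WT/WT and 13.4 ± 1.32% in KO/KO, and Itga6 54.7 ± 0.719% and 48.1 ± 1.71%. The sum itself was 23.4 ± 1.11 and 34.6 ± 1.23 CPM per kb, while that of the 9 beta subunits was 54.7 ± 2.67 and 56.5 ± 2.32 CPM per kb (SD, n = 3 each). These shares are a description with no test.

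**Figure D3:**
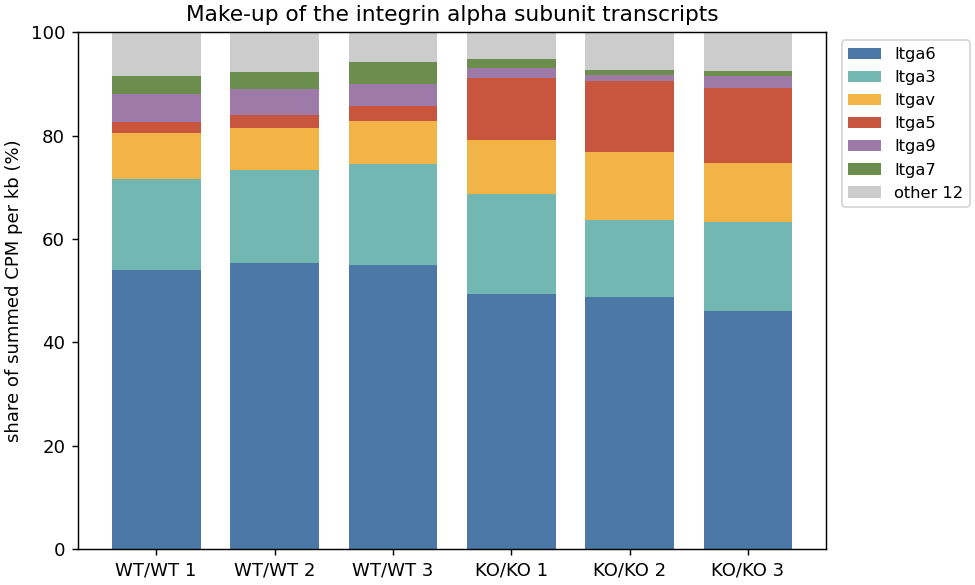
Share of the summed CPM per kb of the 18 integrin alpha subunits (y axis, percent) taken by each of 6 subunits and by the other 12 together, in each library (x axis). The Itga5 band widens from 2.56% on average in WT/WT to 13.4% in KO/KO, and Itga6 is the largest band in every library.

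Among the beta subunits the order was the same in both genotypes for the 3 most abundant. Itgb1 stood at 37.7 ± 2.57 and 34.8 ± 3.11, Itgb5 at 12.9 ± 0.670 and 15.9 ± 1.80 and Itgb3 at 2.37 ± 0.261 and 3.20 ± 0.451 CPM per kb in WT/WT and KO/KO (SD, n = 3 each). No 2 of these 3 overlapped in any library. Itgb8, Itgb4, Itgb2 and Itgb7 stayed under 2 CPM per kb.

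Subunits of white blood cell integrins rose from low levels. Itgb2, the common beta subunit of the leukocyte integrins (chromosome 10, 77530252 to 77565708, plus strand), had 0.776, 0.706 and 0.784 CPM across WT/WT and 2.35, 5.07 and 4.28 CPM across KO/KO. It had the second largest rise of the family (log2 fold change 2.37, SE 0.32, edgeR adjusted p = 0.00166), and KO/KO replicate 1 was the lowest of the KO/KO libraries. Itgal, the alpha subunit that pairs with Itgb2 in the lymphocyte adhesion receptor for ICAM proteins, had 2.03, 2.06 and 1.495 CPM against 2.64, 7.01 and 4.59 CPM (log2 fold change 1.35, SE 0.34, edgeR adjusted p = 0.0264). Here KO/KO replicate 1 lay only just above WT/WT, and dropping that library gave a log2 fold change of 1.65. Leaving out KO/KO replicate 2 instead gave 0.96 (edgeR adjusted p = 0.0579), and without WT/WT replicates 1, 2 and 3 the edgeR adjusted p was 0.0729, 0.0831 and 0.105.

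Itgae, whose product pairs with that of Itgb7 to bind E-cadherin, had 1.23, 0.706 and 0.686 CPM across WT/WT and 1.34, 2.29 and 2.698 CPM across the KO/KO libraries (log2 fold change 1.27, SE 0.36, edgeR adjusted p = 0.0434). The gap between the genotypes was narrow: KO/KO replicate 1 was near WT/WT replicate 1. Without KO/KO replicate 1 its log2 fold change was 1.52. The edgeR adjusted p was 0.164 and 0.1495 without WT/WT replicates 2 and 3 and 0.0751 and 0.104 without KO/KO replicates 2 and 3. Itgb7 had 0.525, 0.519 and 0.613 CPM against 1.30, 0.669 and 1.35 CPM and did not pass (edgeR adjusted p = 0.110). Itga4, the other alpha partner of Itgb7 and also of Itgb1, overlapped between genotypes at 0.848 ± 0.300 and 1.22 ± 0.256 CPM (SD, n = 3 each, edgeR adjusted p = 0.390).

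The other alpha partners of Itgb2 were close to 0. Itgam and Itgax, of myeloid cells, and Itgad had at most 24 counts in any library, and Itgax had 0 counts in all 3 KO/KO libraries. The level of Itgam is uncertain, since other genes, led by Gm49368 on the same strand, cover 68.7% of its exon bases. How reads shared between genes were counted is not known. These 3 genes lie together on chromosome 7 (Itgam at 128062640 to 128118491), 728 kb or more from Itgal (127296260 to 127335138, plus strand). The 8 markers of macrophages and leukocytes summed to between 1.80 and 2.60 CPM across WT/WT and between 4.42 and 5.37 CPM across KO/KO. Most of that sum was Cd68, a lysosomal gene, which rose from 1.48 ± 0.278 to 4.07 ± 0.646 CPM (SD, n = 3 each). The other 7 markers were under 1 CPM in every library. Ptprc, the defining surface protein of white blood cells, had 0.114, 0.374 and 0.417 CPM across WT/WT and 0.246, 0.203 and 0.0155 CPM across KO/KO, and the genotypes overlapped. Adgre1 and Lyz2, of macrophages, had 0 counts in at least 4 libraries. The part of leukocyte RNA in the rises of Itgb2, Itgal and Itgae was not tested.

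**Figure D4:**
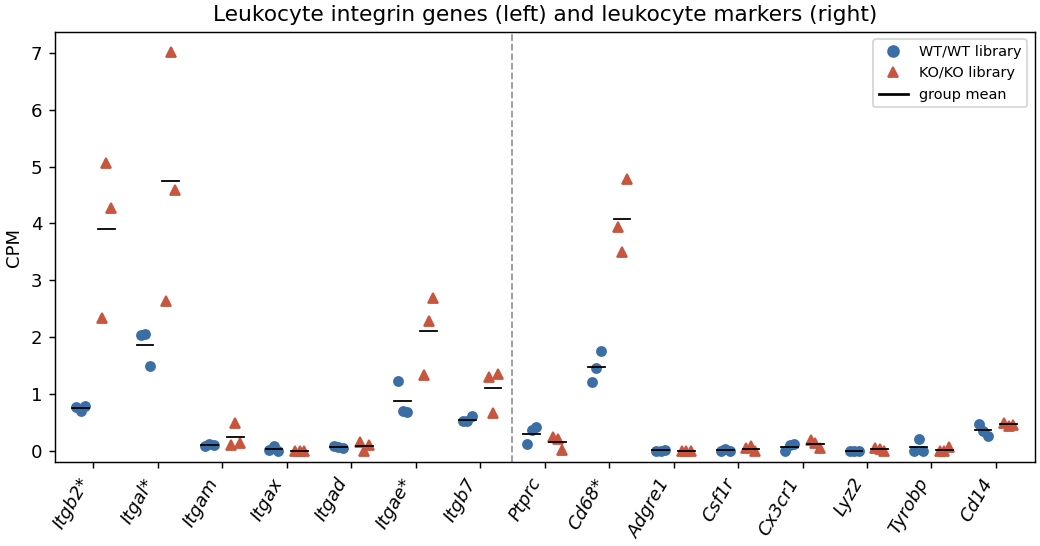
CPM (y axis) of 7 white blood cell integrin genes (left of the dashed line) and 8 leukocyte markers (right) in each library, with the group mean as a line. Itgb2 and Itgal reach 5.07 and 7.01 CPM across KO/KO, while Ptprc, Adgre1, Csf1r, Lyz2 and Tyrobp stay under 0.5 CPM in every library.

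Itga2b, the platelet integrin subunit that pairs with Itgb3, overlapped between genotypes, at 1.46, 1.72 and 0.907 CPM across WT/WT and 0.961, 1.30 and 1.69 CPM across KO/KO (edgeR adjusted p = 0.944). The platelet markers Pf4, Ppbp, Gp1bb and Gp9 had 0 counts in every library. Endothelial cells are a further known site of Itga5 and Itgav. Their 9 markers summed to between 35.4 and 42.1 CPM across WT/WT and between 114 and 150 CPM across KO/KO, and 3 of the 6 tested, Cdh5, Kdr and Flt1, rose. Egfl7, Pecam1 and Tek had log2 fold changes of 0.42, 0.16 and -0.18 and did not pass. Tie1, Esam and Emcn were under 1 CPM in every library. The part of endothelial RNA in the rises of Itga5 and Itgav was not tested.

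Laminin chains were abundant, and most did not pass. Of 10 chains, 9 were tested, 1 rose and 0 fell (edgeR, with 1 lower at an unadjusted p under 0.05, and 0 lower with DESeq2). The 1 rise is 11.1% of those tested, near the 8.33% of all genes tested. Lamb1 and Lamc1, the beta and gamma chains of most laminins, had 155 ± 4.30 and 137 ± 5.81 CPM and 119 ± 3.84 and 134 ± 6.67 CPM across WT/WT and KO/KO (SD, n = 3 each). Lamb1 lay lower and Lamc1 higher in every KO/KO library, as did 17.5% and 18.2% of all genes tested, and neither passed (edgeR adjusted p = 0.141 and 0.179). Per kilobase, Lama5 was the most abundant alpha chain in every library, at 11.02 ± 1.18 and 9.63 ± 2.49 CPM per kb.

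Lama3 encodes a chain of the laminin of epithelial hemidesmosomes, whose beta chain is encoded by Lamb3. Lama3 had 41.5, 56.2 and 47.4 CPM across WT/WT and 73.7, 71.5 and 64.6 CPM across the KO/KO libraries (log2 fold change 0.53, SE 0.12, edgeR adjusted p = 0.0163). It was higher in every KO/KO library. Lamb3 had 0 counts in all WT/WT libraries and 0, 24 and 2 counts in the KO/KO libraries. The edgeR adjusted p of Lama3 was 0.0680 and 0.0719 without WT/WT replicates 1 and 3.

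**Figure D5:**
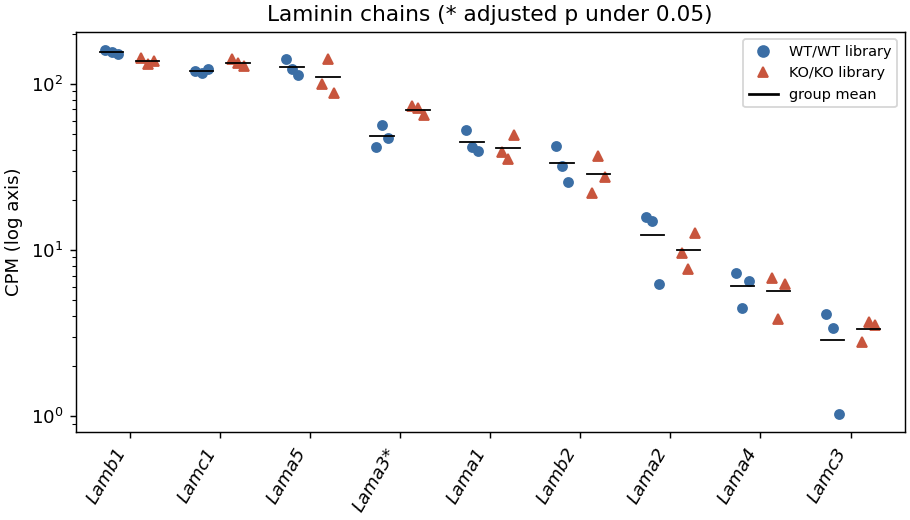
CPM (y axis, log scale) of the 9 tested laminin chains in each library, with the group mean as a line and an asterisk for the 1 that passed, Lama3. Lama2 and Lamc3 have their lowest value in WT/WT replicate 3.

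The remaining chains varied as much within a genotype as between them. Lama1, the alpha chain that Sertoli cells make, had 52.8, 41.9 and 39.2 CPM across WT/WT and 38.8, 35.3 and 48.8 CPM across KO/KO (edgeR adjusted p = 0.638). Lama2, the muscle laminin chain, had 15.7, 14.9 and 6.23 CPM against 9.61, 7.70 and 12.7 CPM, with WT/WT replicate 3 lowest. Myh11, a smooth muscle myosin of the peritubular myoid cells around the tubule, was at 11.05, 11.8 and 3.36 CPM across WT/WT and 4.98, 5.72 and 5.94 CPM across KO/KO, and the 6 myoid markers summed to between 5.96 and 19.3 CPM across WT/WT and between 8.55 and 12.05 CPM across KO/KO. Acta2 also dipped in WT/WT replicate 3 (4.43, 5.36 and 0.735 CPM across WT/WT). Tagln, Cnn1 and Actg2, each under 1 CPM in every library, showed no such dip. Of the Sertoli cell markers, Cldn11 (22.9, 20.0 and 9.76 CPM across WT/WT) and Cst9 (18.5, 19.4 and 7.08 CPM) were low in that library too, while Amh was highest there of the WT/WT libraries (19.7, 15.7 and 22.1 CPM). Lamc3 was likewise low in WT/WT replicate 3, at 1.03 CPM against 2.79 to 4.13 CPM in the other 5 libraries. The part of myoid RNA in Lama2 and Lamc3 was not tested. Lama4, the vascular chain, stood at 6.04 ± 1.42 and 5.62 ± 1.59 CPM and Lamb2 at 33.3 ± 8.24 and 28.6 ± 7.33 CPM (SD, n = 3 each). Lama5 had 140, 123 and 113 CPM across WT/WT and 99.7, 142 and 87.5 CPM across KO/KO and did not pass (edgeR adjusted p = 0.469), but without KO/KO replicate 2, the highest library of the group, it did (log2 fold change -0.42, edgeR adjusted p = 0.0270).

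Most partners outside the 2 families did not pass. Of 28 genes for integrin adaptors and signalling, 26 were tested, 3 rose and 1 fell (11.5% and 3.85%, against 8.33% and 6.42% of all genes tested), with a median log2 fold change of 0.02. Src, the tyrosine kinase of focal adhesions, fell from 50.9, 46.3 and 45.1 CPM to 29.4, 26.1 and 29.0 CPM (log2 fold change -0.75, SE 0.10, edgeR adjusted p = 0.00157). Tln2, a talin that links beta subunits to actin, rose from 88.1 ± 6.85 to 118 ± 10.2 CPM, the scaffold gene Bcar1 from 49.4 ± 3.01 to 62.8 ± 5.66 CPM and the tetraspanin gene Cd9, also a stem cell surface marker, from 26.3 ± 1.30 to 34.6 ± 2.77 CPM (SD, n = 3 each, edgeR adjusted p = 0.0174, 0.0423 and 0.0334). The core of the adhesion complex did not pass: Tln1, Fermt2, Ilk, Vcl, Ptk2, Pxn and Zyx had log2 fold changes between -0.09 and 0.18. Of these, Ilk and Vcl are uncertain, since other genes cover 89.7% of the exon bases of Ilk and 25.5% of those of Vcl. The largest overlaps are with Taf10 and Ap3m1, both on the opposite strand. Other genes likewise cover 10.7% of those of Cd9, led by Gm26728 on the opposite strand. Of the 3 rises, 1 was left without KO/KO replicate 1 or 3 and 0 without WT/WT replicate 2 or 3.

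Of 24 genes for other basement membrane proteins and integrin ligands, 21 were tested, 2 rose and 4 fell (9.52% and 19% of those tested, against the same 8.33% and 6.42%), with a median log2 fold change of 0.02. Nid1, nidogen, which ties laminin to collagen IV, rose from 77.5, 78.6 and 61.9 CPM to 134, 259 and 221 CPM (log2 fold change 1.49, SE 0.21, edgeR adjusted p = 0.00183). Of the exon bases of the related Nid2, 8.45% lie under other genes, led by Rtraf on the opposite strand. Nid2 moved the other way to Nid1, from 133 ± 11.9 to 99.6 ± 7.78 CPM (SD, n = 3 each, edgeR adjusted p = 0.0177). That call was lost without WT/WT replicate 2 or 3 or KO/KO replicate 3 (edgeR adjusted p = 0.0705, 0.0831 and 0.0543). Hspg2, perlecan, fell from 165 ± 6.96 to 108 ± 14.1 CPM and Fbln1, fibulin, from 51.6 ± 4.48 to 35.0 ± 3.27 CPM (SD, n = 3 each, edgeR adjusted p = 0.00400 and 0.00865). Npnt, nephronectin, a ligand of the Itga8 receptor, fell from 6.25, 5.13 and 5.86 CPM to 1.72, 1.28 and 1.63 CPM (log2 fold change -1.90, SE 0.21, edgeR adjusted p = 0.000691), while Itga8 itself was at 0.328 ± 0.206 and 0.274 ± 0.130 CPM (SD, n = 3 each). Col4a1, a collagen IV chain, rose from 38.3 ± 3.83 to 55.2 ± 9.62 CPM (SD, n = 3 each, edgeR adjusted p = 0.0306). Its neighbour Col4a2 did not pass (edgeR adjusted p = 0.541), and the call of Col4a1 was lost without any 1 library other than KO/KO replicate 2 (edgeR adjusted p between 0.0520 and 0.126).

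Fibronectin itself, the ligand of the Itga5 receptor, overlapped between genotypes: Fn1 had 400, 381 and 419 CPM across WT/WT and 409, 432 and 379 CPM across the KO/KO libraries (log2 fold change 0.02, SE 0.08, edgeR adjusted p = 0.870). Vtn, vitronectin, was under 0.3 CPM in every library. Dag1, dystroglycan, a laminin receptor that is no integrin, had 351 ± 16.3 and 329 ± 18.2 CPM (SD, n = 3 each, edgeR adjusted p = 0.450). Icam1, a ligand of the Itgal and Itgb2 pair, had 7.79 ± 0.850 and 5.99 ± 0.903 CPM (edgeR adjusted p = 0.188). Vtn was not tested, and Fn1, Dag1 and Icam1 did not pass.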

How the data were processed

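Per the labels' protocols, total RNA was isolated with PicoPure columns and DNase, and stranded libraries were built with a SMARTer kit. The authors deposited raw counts per row for each library, and per the submitters' processing notes reads were aligned to mm10 by STAR 2.7.0a and counted by featureCounts 1.5.1. The annotation, strand setting and multi-mapping rule were not given in the sources used here. Each file has 55292 rows, and the 1205 rows of transposable element families, between 14.1% and 15.5% of all counts, were left out of library sizes and tests.

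Genes were tested with edgeR 4.0.16 (quasi-likelihood F test, two-sided, TMM factors, filterByExpr, genotype as the only term) in R 4.3.3, with Benjamini-Hochberg adjustment over all genes tested. The SE was taken as the log2 fold change divided by the square root of F, and the fit was tested on simulated data. No 2 libraries agreed within sampling noise (chi-square per degree of freedom of at least 13.5). Named were Dnmt3a, members that passed or averaged at least 1 CPM, and up to 6 passing genes of each of the 2 pathway lists. Any further gene in the text was picked with its values in view. Members and lists were chosen with earlier results of these data known. Alternatives were RLE and upper quartile factors, other low-count filters, DESeq2 1.42.0, replicate number as a block, and leaving out each library. Coordinates and exon lengths came from GENCODE M21 (GRCm38, the assembly of mm10), in which all 37 members were found by symbol. 1 gene of these families is not reported here. Figures were drawn with matplotlib 3.10.9.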

Additional observations from a re-analysis of the deposited data

How the results depend on the processing

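Over the 37 integrin, laminin and pathway genes named besides Dnmt3a, no log2 fold change of a called gene turned sign under any of the 12 alternatives. RLE and upper quartile factors, both other filters and DESeq2 changed no call among these genes. Of the 38 named genes, only those that passed could lose a call: Dnmt3a, 8 members that rose and 3 that fell, and the called pathway genes. The latter were 3 adaptor genes higher and 1 lower, and 2 basement membrane and ligand genes higher and 4 lower. Calls were lost with fewer libraries: 9, 11 and 12 without WT/WT replicates 1, 2 and 3, and 4, 3 and 5 without KO/KO replicates 1, 2 and 3. Those fits have fewer samples.

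Leaving out each library in turn gave between 814 and 1985 genes higher and between 560 and 1380 lower over all genes, between 3 and 7 integrins higher and 0 and 3 lower, and between 0 and 1 laminin higher and between 0 and 1 lower. It gave between 0 and 4 adaptor genes higher, and between 1 and 2 basement membrane and ligand genes higher. With no filter on low counts, 5 adaptor genes were higher, against 3, and 2 laminins, Lama3 and Lamb3, against 1. The same setting gave 2575 genes higher and 1914 lower over all genes.

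The labels number the replicates of both genotypes, but pairing by number was not evident. Deviations of same-numbered samples from their group means correlated at -0.126, 0.0499 and 0.0579, and not every sample correlated best with its own number. With so few libraries per genotype, these correlations cannot settle whether the samples were paired. With replicate number as a block, 1467 genes were higher and 1107 lower, 6 integrins were higher and 2 lower, 1 laminin was higher, 1 adaptor gene was higher and 1 basement membrane gene was higher. Itga9, Itgae, Cd9, Bcar1 and Col4a1 lost their calls in this fit, with edgeR adjusted p between 0.0508 and 0.0811.

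CPM per kb depends on the merged exon lengths of the annotation, which is not known to be the one the authors counted with.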

Other observations

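The 4 genes with similar names that are no subunits gave the following values. Itgb1bp1, which binds the tail of the Itgb1 product, had 6.21, 6.79 and 6.27 CPM across WT/WT and 8.49, 8.67 and 9.16 CPM across KO/KO, did not overlap between genotypes and did not pass (log2 fold change 0.45, SE 0.15, edgeR adjusted p = 0.0685). Itgb1bp2, a muscle chaperone gene, and Itgb3bp, a centromere gene, overlapped between genotypes, with log2 fold changes of 0.12 and -0.28 (edgeR adjusted p = 0.837 and 0.367). Itgbl1 had at most 12 counts in any library and was not tested.

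The 37 members together took between 0.0891% and 0.0966% of the gene counts in the WT/WT libraries and between 0.106% and 0.111% in the KO/KO libraries.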
